A study of Danio rerio with 20 samples.

Results

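The genes described here are secreted ligands, secreted antagonists, intracellular inhibitors and 1 target gene of the bone morphogenetic protein (BMP) pathway in zebrafish embryos between 8 and 16 hours post fertilization (hpf). They were chosen by name: bmp2b, bmp4, bmp7a, chrd, nog1, szl, bambia, smad6a, smad7 and id3. Of the 10 symbols, 6 matched the gene name table exactly (bmp4, bmp7a, chrd, szl, smad7 and id3). Another 3 matched only without their paralog letter, and each then named 2 gene IDs, so that bmp2a and bmp2b, bambia and bambib, and smad6a and smad6b could not be assigned to an ID. The symbol nog1 was not matched and is not analysed here. The set therefore held 12 gene IDs of the 32057 in the table. The duplicated symbols are named by abundance or course below: abundant bmp2 (ENSDARG00000041430) and less abundant bmp2 (ENSDARG00000013409), abundant bambi (ENSDARG00000055381) and less abundant bambi (ENSDARG00000099677), rising smad6 (ENSDARG00000031763) and level smad6 (ENSDARG00000053209).

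BMP ligands are secreted dimers that bind type I and type II serine/threonine kinase receptors, which phosphorylate Smad proteins that enter the nucleus with Smad4 and switch target genes on. In the zebrafish gastrula, ligands made on the ventral side and antagonists made by the dorsal organizer, such as Chordin, form a gradient of signalling that patterns the dorsoventral axis. The pathway also induces its own inhibitors, among them Bambi, Smad6 and Smad7. After gastrulation the same ligands are used again in the tailbud, the eye, the heart and other organs.

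RNA was sequenced from whole, unsorted embryos, in 20 libraries that formed 10 groups of 2, from 2 types of pool at 8, 10, 12, 14 and 16 hpf. MPNP pools held progeny, not genotyped, of crosses between mdm2+/-; puma-/-; noxa-/-; p21-/- fish, and so mixed mdm2-/-, mdm2+/- and mdm2+/+ embryos, of which the mdm2-/- embryos are expected to be a minority. PNP pools held puma-/-; noxa-/-; p21-/- embryos of the same stages, so both pool types lacked puma, noxa and p21, and no wild-type embryos were included. Each pool held about 50 embryos fertilized within 15 min; Mdm2 restrains the transcription factor p53, and Puma, Noxa and p21 act downstream of p53. A pool difference that arises in the mdm2-/- embryos is therefore diluted by the embryos that keep mdm2. Effects of the cross or clutch on a pool difference cannot be told apart from those of the genotype. The labels do not say whether both libraries of a group had different parents, and p-values therefore reflect only the spread between them, which may be technical.

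Expression was deposited as TPM, the share of each gene's transcripts in a fixed total, which scales for transcript length and library total and keeps no read depth. The libraries had 13080 to 15326 genes at 1 TPM or more, and their 10 most abundant genes held 8.62% to 14.7% of the total. Stage labels were set beside stage genes. Of 12 tested gastrula markers, chrd of the set among them, 12 fell from 8 to 16 hpf (median log2 change -2.95), against 31.6% of all genes. Of 14 tested somite and later markers 12 rose (median 3.96), against 44.4% of all genes. Some of these, such as myog with at most 0.04 TPM at 8 hpf, reached the tested mean of 1 TPM only through later stages. Some gastrula markers, such as sox32 with at most 0.22 TPM at 16 hpf, reached it only through earlier stages. The rises and falls of such genes were thus favoured in advance, and the counts are descriptions. The level of mdm2 RNA at 16 hpf was 321 ± 5.7 TPM in MPNP and 114 ± 0.89 TPM in PNP (SD, n = 2 each). Against the course of all genes outside the BMP lists, MPNP pools stood 0.19 h, 0.38 h, 0.38 h and 0.19 h behind PNP pools at 8, 10, 12 and 14 hpf and 0.22 h ahead at 16 hpf. That estimate took in mdm2 and any other gene that differed between pools, so it need not measure age alone. At 16 hpf the somite and later markers had a median pool difference of -0.15 (log2, MPNP minus PNP), with 2 of 14 higher in MPNP. The gastrula markers had a median of -0.05, with 5 of 12 higher. Whether the offset reflects age was not tested. It was estimated for each library, so its removal also changed the spread between the 2 libraries of a group. The p-values after its removal do not take that into account. Within each stage, libraries with the same number deviated together across the pool types (correlations 0.485 to 0.615). A fit with that number as a block is therefore given where it changed a call for a named gene.

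**Figure D1:**
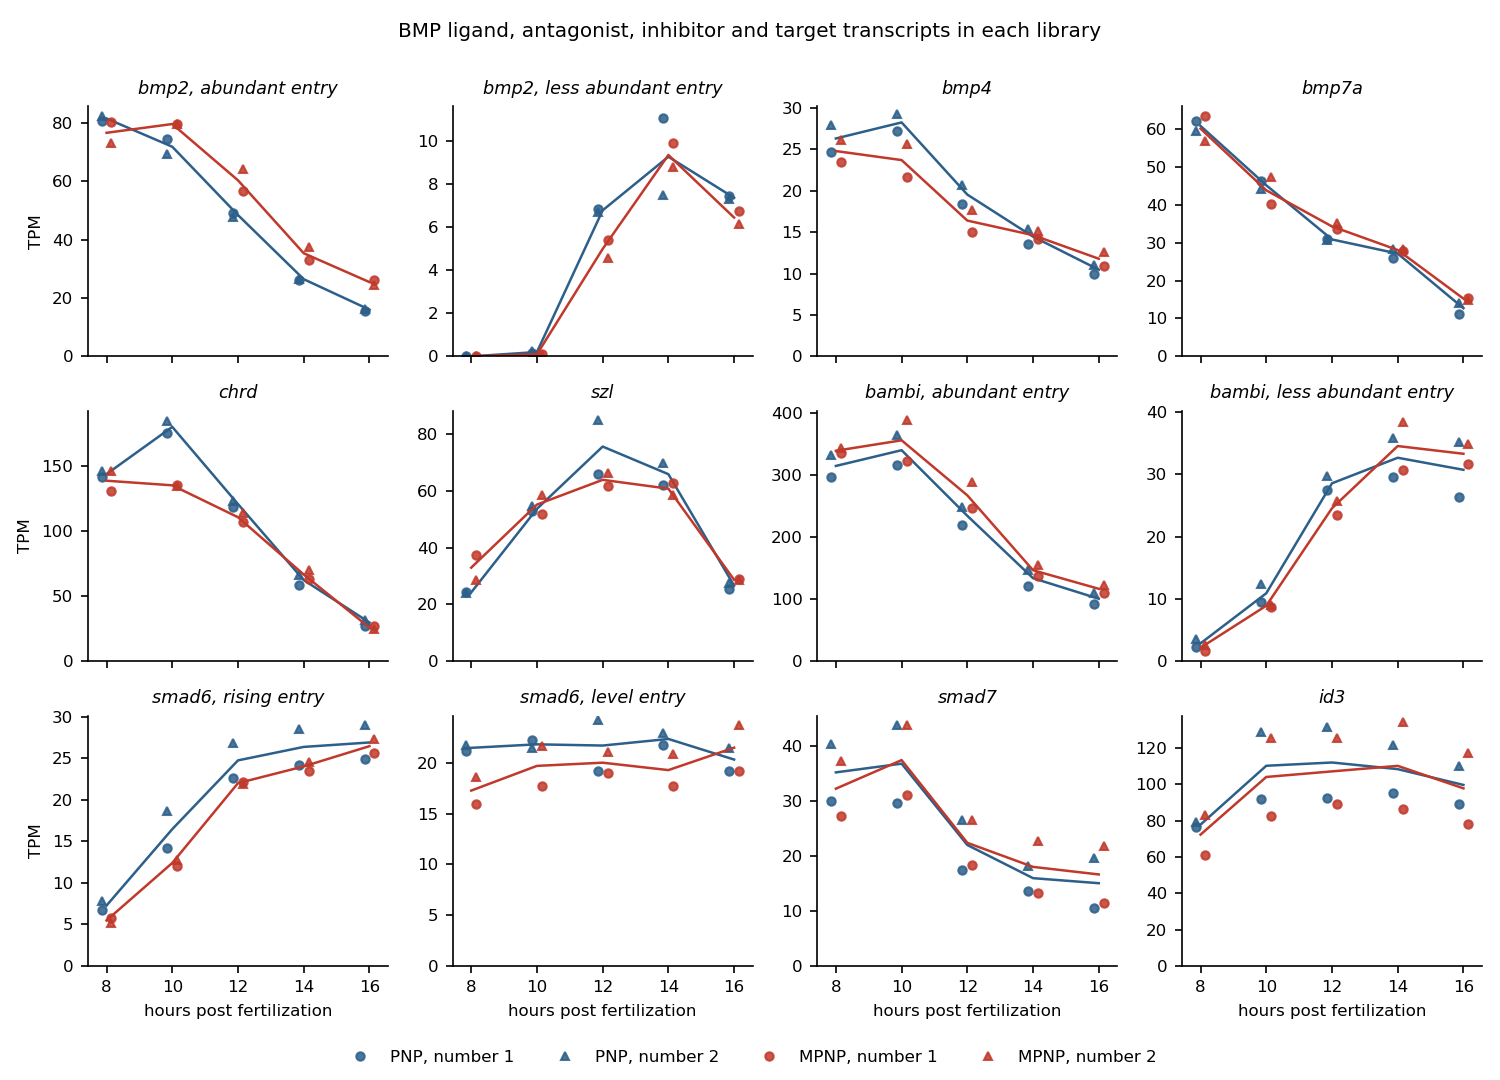
TPM of each of the 12 gene IDs (vertical axes, each on its own scale) against stage in hpf, with points for libraries, colour for the pool type, marker shape for the library number and lines through the mean of the 2 libraries. Abundant bmp2, bmp7a, chrd and abundant bambi fall over the series, less abundant bambi and rising smad6 climb, and the szl means are highest at 12 hpf.

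Tests were made with limma on log2(TPM + 1) over the 14774 genes with a mean of at least 1 TPM, with p-values adjusted by Benjamini-Hochberg over all of them and called under 0.05. All 12 IDs were tested, although less abundant bmp2 reached the minimum only through its values from 12 hpf on. Changes between stages are means over both pool types unless a pool type is named. Changes on this scale understate those of genes with low values. In whole embryos, fewer cells of a type and less RNA per cell cannot be told apart.

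Among the ligands, abundant bmp2, bmp7a and bmp4 declined while less abundant bmp2 appeared. Bmp2 and Bmp7 act together as the heterodimer that carries most of the ventral signal in the zebrafish gastrula. Abundant bmp2 measured 80.2, 72.9, 79.5, 79.6, 56.6, 64.0, 33.0, 37.6, 26.3 and 24.6 TPM in the MPNP libraries from 8 to 16 hpf, 2 per stage. In the PNP libraries it measured 80.5, 82.3, 74.4, 69.2, 49.2, 47.6, 26.2, 26.6, 15.7 and 16.3 TPM. In MPNP the level held through 10 hpf, while in PNP both libraries at 10 hpf lay below both at 8 hpf. From 10 hpf on the level fell at every interval, and all 4 libraries at 16 hpf lay below all 4 at 12 hpf. As the mean of both pool types, the change from 8 to 16 hpf was -1.92 ± 0.07 (log2, SE; limma adjusted p = 3.2e-11). The mean TPM went from 76.5 to 25.4 in MPNP and from 81.4 to 16.0 in PNP.

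For bmp7a, the levels were 56.8 to 63.4 TPM at 8 hpf, 40.2 to 47.4 at 10 hpf, 30.7 to 35.1 at 12 hpf, 26.0 to 28.3 at 14 hpf and 11.3 to 15.5 at 16 hpf over the 4 libraries of each stage. In both pool types bmp7a was already lower at 10 hpf than at 8 hpf, with no overlap between the stages, whereas abundant bmp2 was so in PNP alone. Its change from 8 to 16 hpf was -2.04 ± 0.08 (log2, SE; limma adjusted p = 7.6e-11), and its steepest interval was the last, at -0.94 ± 0.08 between 14 and 16 hpf (limma adjusted p = 5.5e-06). Whether bmp7a and abundant bmp2 differed in their first interval was not tested.

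The level of bmp4, a ligand expressed ventrally and later in the tailbud, was 23.5 to 27.9 TPM at 8 hpf and 9.94 to 12.6 TPM at 16 hpf. Its change of -1.13 ± 0.09 (log2, SE; limma adjusted p = 1e-07) was the smallest of the 3 falling ligands. The step from 12 to 14 hpf, -0.28 ± 0.09 with a limma adjusted p of 0.046, was fragile: it missed the threshold without any 1 of 17 libraries, with adjusted p up to 0.17. The step from 14 to 16 hpf, -0.36 ± 0.09 (limma adjusted p = 0.018), missed it without MPNP or PNP 14 hpf number 2 or MPNP or PNP 16 hpf number 1, with adjusted p of 0.064 to 0.074.

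The less abundant bmp2 was listed at 0 in all 4 libraries at 8 hpf and at 0.08 to 0.26 TPM at 10 hpf. At 12 hpf it stood at 5.38 and 4.58 TPM in MPNP and at 6.85 and 6.69 TPM in PNP. At 14 hpf it stood at 7.46 to 11.05 TPM and at 16 hpf at 6.14 to 7.42 TPM. Because it met the minimum of the filter only through the stages from 12 hpf on, its higher level there is given as a description, with no p and no fold. The later fall from 14 to 16 hpf, -0.37 ± 0.11 (limma adjusted p = 0.036), was lost without any 1 of 7 libraries of those stages, with adjusted p of 0.053 to 0.13. As a share of the summed bmp2 TPM, this ID went from 0% at 8 hpf to 20.2% ± 0.27 in MPNP and 31.5% ± 0.85 in PNP at 16 hpf (SD, n = 2 each), a description with no test.

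Of the extracellular antagonists, chrd fell and szl rose and fell again. Chordin, made by the organizer, binds BMP ligands and keeps them from their receptors. Its levels were 130.9, 146, 135.1, 134.7, 106.9, 114, 62.8, 70.1, 26.9 and 24.6 TPM in the MPNP libraries from 8 to 16 hpf. In the PNP libraries they were 141.3, 145.8, 175.4, 184.1, 118, 123, 58.5, 65.9, 27.3 and 31.9 TPM. All 4 libraries at 16 hpf lay far below the others, and the change from 8 to 16 hpf was -2.31 ± 0.08 (log2, SE; limma adjusted p = 1.3e-11). The fall grew from interval to interval, with log2 changes of -0.43 from 10 to 12 hpf, -0.84 from 12 to 14 hpf and -1.19 from 14 to 16 hpf (limma adjusted p = 0.0006, 5.1e-06 and 5.6e-07); the difference between the intervals was not tested.

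Sizzled, the product of szl, is a secreted inhibitor of the proteases that cut Chordin, and its gene is a ventral target of BMP signalling. It measured 37.4, 28.5, 51.9, 58.5, 61.6, 66.2, 62.9, 58.7, 28.8 and 28.5 TPM in the MPNP libraries from 8 to 16 hpf. In the PNP libraries it measured 24.5, 24.0, 52.8, 54.5, 66.1, 85.2, 62.0, 69.8, 25.5 and 27.7 TPM. The levels at 8 and 16 hpf overlapped, and every library from 10 to 14 hpf lay above both. The rise from 8 to 10 hpf was 0.93 ± 0.10 and the fall from 14 to 16 hpf was -1.17 ± 0.10 (log2, SE; limma adjusted p = 1.1e-05 and 4.6e-06). The change between the ends of the series was -0.03 ± 0.10 (limma adjusted p = 0.82). The further rise of 0.34 from 10 to 12 hpf (limma adjusted p = 0.015) was lost without MPNP 10 hpf number 1, MPNP 12 hpf number 2 or PNP 12 hpf number 2, with adjusted p of 0.0501 to 0.071.

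Among the inhibitors inside the cell or in its membrane, both bambi IDs and the 2 smad6 IDs took different courses. Bambi is a pseudoreceptor that lacks a kinase domain and blunts signalling. Abundant bambi had the highest level of the set at 8 hpf, 298 to 344 TPM, and stood at 91.8 to 123.3 TPM at 16 hpf, a change of -1.59 ± 0.10 (log2, SE; limma adjusted p = 9.6e-09). Less abundant bambi went the other way, from 1.64 to 3.48 TPM at 8 hpf to 26.3 to 35.1 TPM at 16 hpf, a change of 3.25 ± 0.15 (limma adjusted p = 2.5e-10). Its share of the summed bambi TPM was 0.627% ± 0.20 in MPNP and 0.890% ± 0.21 in PNP at 8 hpf, and 22.2% ± 0.17 and 23.3% ± 1.4 at 16 hpf (SD, n = 2 each). The last step of abundant bambi, -0.37 from 14 to 16 hpf (limma adjusted p = 0.030), was lost without MPNP or PNP 14 hpf number 2 or MPNP or PNP 16 hpf number 1, with adjusted p of 0.10 to 0.12.

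Smad6 and Smad7 are inhibitory Smads, which compete with receptor-activated Smads or mark the receptors for degradation. Rising smad6 went from 5.21 to 7.76 TPM at 8 hpf to 24.8 to 28.9 TPM at 16 hpf, a change of 1.92 ± 0.10 (log2, SE; limma adjusted p = 1e-09). Most of that rise lay before 12 hpf, with 1.06 from 8 to 10 hpf and 0.67 from 10 to 12 hpf (limma adjusted p = 3.9e-06 and 0.00017). Level smad6 stayed between 15.9 and 24.3 TPM in all 20 libraries, and its change of 0.11 ± 0.11 did not pass the test (limma adjusted p = 0.36).

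The fall of smad7 was read against an offset between library numbers that recurred in every group. Number 2 was also higher in 10 of 10 groups for bmp4 and both bambi IDs. Their median ratios were 1.13 for bmp4, 1.14 for abundant bambi and 1.23 for less abundant bambi. At 8 hpf smad7 measured 27.2 and 37.1 TPM in MPNP and 30.0 and 40.3 TPM in PNP, and at 16 hpf 11.4 and 21.8 TPM in MPNP and 10.4 and 19.6 TPM in PNP. Number 2 exceeded number 1 in 10 of 10 groups, by a ratio of 1.33 to 1.90, and every value at 16 hpf lay below every value at 8 hpf. The change was -1.09 ± 0.27 (log2, SE; limma adjusted p = 0.0024). The step from 10 to 12 hpf, -0.72 ± 0.27, did not pass (limma adjusted p = 0.052) and passed with the number as a block (limma adjusted p = 1.4e-05; 60.1% of all genes were called in that fit).

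The target gene id3 did not decline with the ligands. Id3 is a helix-loop-helix protein without a DNA-binding region and is induced directly by BMP-activated Smads. Its levels were 61.3, 83.4, 82.7, 125.5, 89.0, 125.4, 86.2, 134.3, 78.2 and 117.5 TPM in the MPNP libraries from 8 to 16 hpf. In the PNP libraries they were 76.6, 79.1, 91.9, 128.7, 92.4, 131.7, 95.2, 121.7, 89.4 and 110.1 TPM. Number 2 exceeded number 1 in 10 of 10 groups here too, with a median ratio of 1.40, and the stages overlapped. The change from 8 to 16 hpf was 0.38 ± 0.21 (log2, SE; limma adjusted p = 0.12), and with the number as a block it was 0.38 ± 0.07 (limma adjusted p = 0.00088). The block likewise called the rise of 0.49 from 8 to 10 hpf, with a limma adjusted p of 0.00043 against 0.092 without it (57.4% of all genes were called with the block).

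In all, 9 of the 12 IDs were called between 8 and 16 hpf, 6 lower and 3 higher; the count includes less abundant bmp2, which the filter bound to be higher late, and is 8 of 11 without it. Across all genes tested 76% were called, 44.4% higher and 31.6% lower, so the share of the set is near the background. The median change of the 12 was -0.56 against 0.20 for all genes. With the block 10 of 12 were called, against 85.8% of all genes. A test of any variation over the 5 stages called 10 of 12 (77.9% of all genes), all but id3 and level smad6, and with the block id3 passed as well (limma adjusted p = 0.00037).

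**Figure D2:**
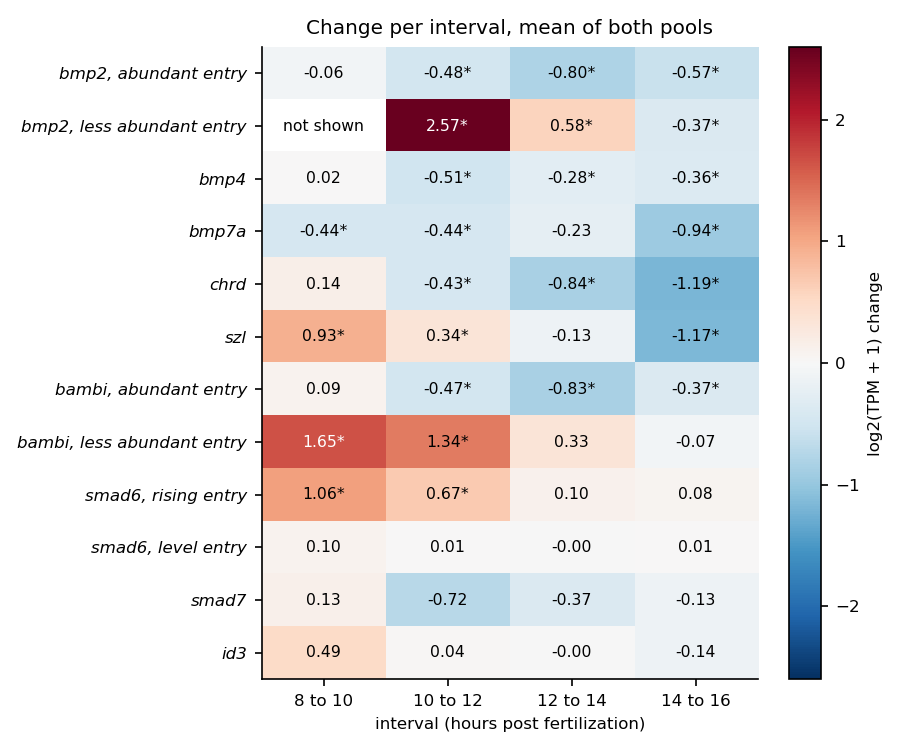
Log2 change of each gene ID (rows) in each interval between stages (columns, hpf), as the mean of both pool types, with colour for direction and size and an asterisk where the limma adjusted p is under 0.05 (for less abundant bmp2 from 10 to 12 hpf the filter favours that call). In this mean of both pool types the called falls of chrd and abundant bmp2 begin after 10 hpf. The rises of less abundant bambi and rising smad6 lie mostly before 12 hpf.

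The intervals divided the set as follows. From 8 to 10 hpf 4 of 12 IDs changed (36.5% of all genes), namely bmp7a, less abundant bambi, rising smad6 and szl. With the block 6 changed, with id3 and chrd added (chrd 0.14 ± 0.05, limma adjusted p = 0.047). That chrd value averages both pool types, which differed: its mean went from 138 to 135 TPM in MPNP and from 144 to 180 TPM in PNP. From 10 to 12 hpf 9 were called (38.6% of all genes), or 8 of 11 without less abundant bmp2. From 12 to 14 hpf 5 changed (23% of all genes), or 8 with the block (45.1% of all genes), which added less abundant bambi, bmp7a and smad7. From 14 to 16 hpf 7 changed (15.7% of all genes), all of them lower (6.76% of all genes were lower), and 4 did so without MPNP 14 hpf number 2, MPNP 16 hpf number 1 or PNP 16 hpf number 1.

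The order of the levels changed over the series. At 8 hpf abundant bambi stood first and chrd second, each clear of the next, followed by abundant bmp2, id3 and bmp7a, whose neighbours in that order overlapped. Then came smad7, szl and bmp4, again overlapping with their neighbours, and below them level smad6, rising smad6, less abundant bambi and less abundant bmp2, each apart from the next. At 16 hpf abundant bambi and id3 overlapped at the top. The next 4, less abundant bambi, chrd, szl and rising smad6, overlapped from neighbour to neighbour, as did level smad6, abundant bmp2, smad7, bmp7a and bmp4 below them, and less abundant bmp2 was lowest.

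**Figure D3:**
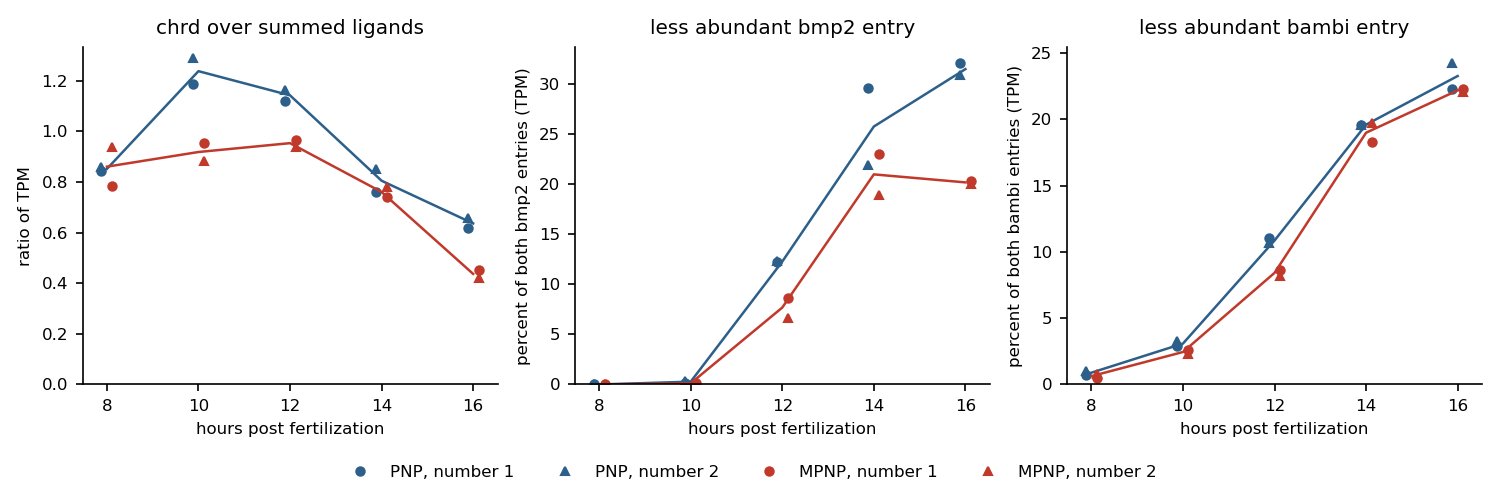
Ratio of chrd TPM to the summed TPM of the ligands (left), and percent of the summed bmp2 TPM (middle) and bambi TPM (right) held by the less abundant ID, against stage in hpf. Points are libraries and lines join the means of 2 libraries; chrd relative to the ligands is lower in both MPNP libraries than in both PNP libraries at 10, 12 and 16 hpf.

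The summed TPM of the 4 ligand IDs went from 161 ± 8.0 in MPNP and 169 ± 1.6 in PNP at 8 hpf to 58.9 ± 0.83 and 46.5 ± 3.1 at 16 hpf (SD, n = 2 each). The ratio of chrd to that sum was 0.860 ± 0.11 in MPNP and 0.852 ± 0.011 in PNP at 8 hpf. At 10 hpf it was 0.918 ± 0.052 in MPNP and 1.24 ± 0.074 in PNP, and at 16 hpf 0.437 ± 0.022 and 0.636 ± 0.028. The ratio of szl to chrd went from 0.240 ± 0.064 in MPNP and 0.169 ± 0.0065 in PNP at 8 hpf to 1.12 ± 0.064 and 0.901 ± 0.046 at 16 hpf. In between, that ratio was higher in MPNP than in PNP at 10 hpf (0.409 ± 0.035 against 0.299 ± 0.0035). The libraries of the pool types overlapped at 12 hpf (0.579 ± 0.0032 in MPNP and 0.626 ± 0.093 in PNP). The ratio was lower in MPNP at 14 hpf (0.919 ± 0.12 against 1.06 ± 0.0014), where the PNP ratio was highest. These ratios are descriptions of RNA levels and were not tested.

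Between the pool types, abundant bmp2 was the member that differed on average: it was higher in MPNP by 0.28 ± 0.04 (log2, SE; limma adjusted p = 0.0019), with the MPNP mean above the PNP mean at 4 of 5 stages. It was 1 of 12 IDs called, against 5.29% of all genes. It stayed called without any 1 library (0.26 to 0.30, highest adjusted p = 0.0063) and with the developmental offset between the pools removed (0.24, limma adjusted p = 0.0046; 4.63% of all genes), but not in the libraries numbered 1 alone (0.26, limma adjusted p = 0.24) or 2 alone (0.30, limma adjusted p = 0.20).

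With the number as a block, 4 of 12 IDs were called on average, against 17.4% of all genes. Besides abundant bmp2, abundant bambi was higher in MPNP by 0.14 ± 0.02 (limma adjusted p = 0.0041, against 0.29 without the block). Rising smad6 was lower by 0.21 on the log2 scale (limma adjusted p = 0.024, against 0.091), and chrd was lower by 0.14 (limma adjusted p = 0.025, against 0.14). After rescaling by median-of-ratios size factors, abundant bmp2, abundant bambi and rising smad6 were called (3 of 12, against 6.34% of all genes). With the offset removed together with the block, a fit chosen after seeing the data, abundant bmp2, abundant bambi and chrd were called (3 of 12, against 15.5% of all genes). The other 8 IDs had average differences between -0.14 and 0.08 that passed in none of these fits.

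**Figure D4:**
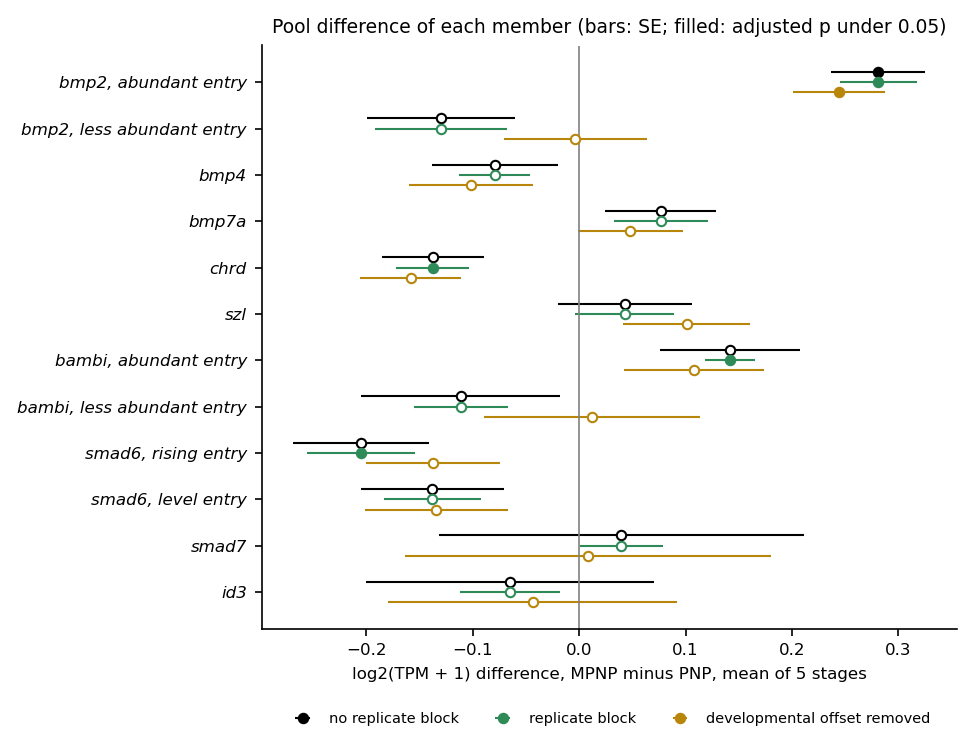
Average difference between pool types over the 5 stages (MPNP minus PNP, log2) for each gene ID, with SE, without the block, with the block and with the developmental offset removed; filled symbols have a limma adjusted p under 0.05. Abundant bmp2 at 0.28 is the ID with filled symbols in all 3 fits.

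By stage, the difference in abundant bmp2 was -0.09 at 8 hpf, 0.15 at 10 hpf, 0.31 at 12 hpf, 0.40 at 14 hpf and 0.64 ± 0.10 at 16 hpf (log2, MPNP minus PNP). The difference at 16 hpf passed the test (limma adjusted p = 0.0040), and both MPNP libraries, at 26.3 and 24.6 TPM, lay above both PNP libraries, at 15.7 and 16.3 TPM. It was 1 of 12 IDs called, against 1.39% of all genes. The call was lost without MPNP 16 hpf number 1 (limma adjusted p = 0.064), without PNP 16 hpf number 1 (0.055) and with the 4 libraries of that stage alone (0.32). At 14 hpf the block called it (limma adjusted p = 0.045, against 0.12; 1.78% of all genes). The difference at 16 hpf minus that at 8 hpf was 0.73 ± 0.14 and did not pass (limma adjusted p = 0.065); it passed with the block (limma adjusted p = 0.019; 1.79% of all genes were called in that fit) and after removal of the developmental offset (limma adjusted p = 0.042; 0.196% of all genes), against 0.223% of all genes without either.

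No other ID was called at a single stage without the block. The counts were 0 of 12 at 8, 10, 12 and 14 hpf by limma, against 0.311%, 0.203%, 0.291% and 0.684% of all genes, and 2, 2, 2 and 1 IDs had an unadjusted p under the threshold. At 10 hpf chrd measured 135.1 and 134.7 TPM in MPNP and 175.4 and 184.1 TPM in PNP, without overlap. This difference of -0.41 ± 0.11 did not pass (limma adjusted p = 0.18) and passed with the block (0.030; 3.01% of all genes). At 8 hpf szl measured 37.4 and 28.5 TPM in MPNP and 24.5 and 24.0 TPM in PNP, a difference of 0.42 ± 0.14 with a limma adjusted p of 0.32. With the offset removed together with the block, szl was called at 8 hpf (3.86% of all genes), chrd at 10 hpf (2.04% of all genes), and abundant bmp2 and abundant bambi at 16 hpf (3.35% of all genes). That fit was chosen after seeing the data. A test of variation of the pool difference over the 5 stages called 0 of 12 by limma (0.102% of all genes), with 1 ID, abundant bmp2, at an unadjusted p under the threshold.

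**Figure D5:**
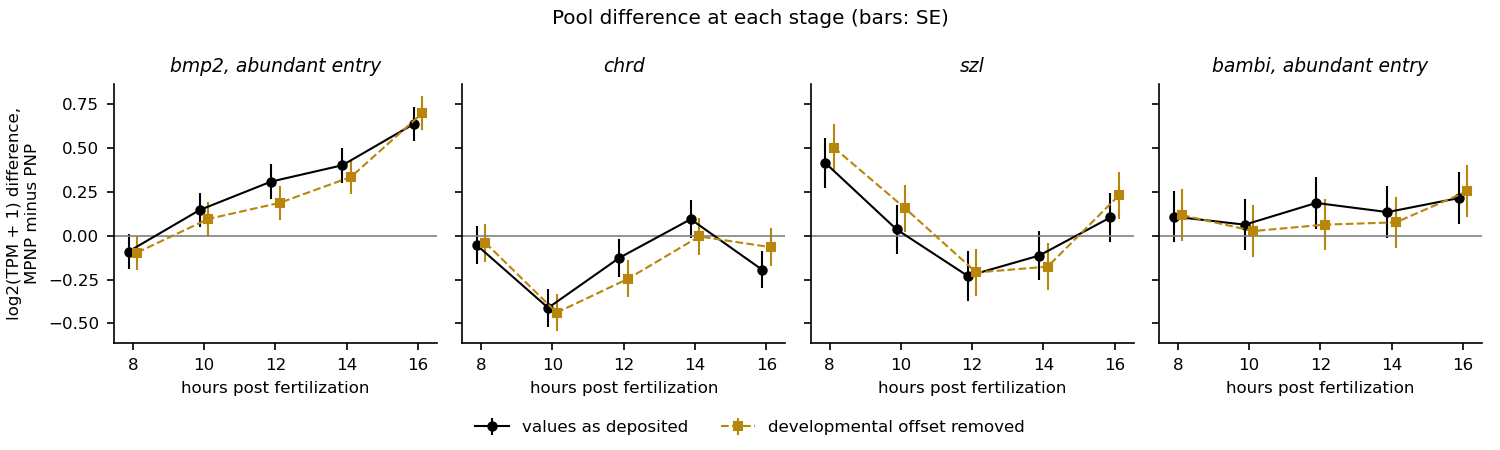
Difference between pool types (MPNP minus PNP, log2, with SE) at each stage in hpf for abundant bmp2, chrd, szl and abundant bambi, as deposited and with the developmental offset removed. The difference in abundant bmp2 goes from -0.09 at 8 hpf to 0.64 at 16 hpf.

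Markers of the tissues that could hold these transcripts were summed at 16 hpf beside the bmp2 difference. The 14 neural plate IDs summed to 766 to 798 TPM in MPNP and 889 to 900 TPM in PNP, without overlap; 0 of 14 tested were called at 16 hpf by limma, and 2 had an unadjusted p under the threshold. The 15 blood and ventral mesoderm IDs summed to 315 to 345 TPM in MPNP and 337 to 364 TPM in PNP, with 0 of 13 tested called by limma and 1 at an unadjusted p under the threshold. The 15 epidermis and periderm IDs summed to 18622 to 21006 TPM in MPNP and 18594 to 20605 TPM in PNP, with 1 of 15 higher and 0 lower. The 17 notochord and tailbud IDs, which include bmp4 of the set, summed to 613 to 692 TPM in MPNP and 661 to 703 TPM in PNP. Of these, 0 of 16 tested were called by limma, and 0 had an unadjusted p under the threshold. At this stage 1.39% of all genes were called. In the average over the 5 stages 5.29% of all genes were called, 387 of 14774 higher and 395 lower. In that average, 3 of 14 neural plate and 2 of 13 blood and ventral mesoderm IDs were lower in MPNP. Among 15 epidermis and periderm IDs 1 was higher and 1 lower. With the block these average counts were 1 higher and 6 lower for neural plate, 4 lower for blood and ventral mesoderm, 1 higher and 5 lower for epidermis and periderm, and 5 lower for notochord and tailbud, against 17.4% of all genes in either direction. No marker was at 0 in both libraries of either group, and the part of these tissues in the bmp2 difference was not tested.

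Other genes of the pathway were read from lists by role, which share some genes with the set. Over all genes 76% were called from 8 to 16 hpf, 44.4% higher and 31.6% lower, and the counts of the lists are descriptions beside that share. The named IDs of bmp3, bmp7, neo1, fst, dand5, fstl1, dlx4b and crabp2 each had a mean under 1 TPM at 8 hpf and met the filter only through later stages. Their rise is given as levels, and the filter favoured the counts of rising genes and the p-value ranks that include them. The gene skilb was under 1 TPM at 16 hpf and met the filter only through earlier stages, so its fall was favoured likewise. Of 12 tested BMP ligands 6 rose and 5 fell from 8 to 16 hpf. The largest changes by p-value outside the set were in bmp3, which went from a mean of 0.22 to 32.9 TPM, in admp, an organizer-expressed ligand that went from 33.0 to 1.4 TPM, and in the ID named bmp7, which went from 0.02 to 7.63 TPM. The change of admp was -3.82 ± 0.10 (log2, SE; limma adjusted p = 2.7e-12). Of 16 tested genes on the receptor list, which also holds activin receptor genes, 6 rose and 8 fell. They included 1 neo1 ID (ENSDARG00000102855), for neogenin, a receptor for netrins and repulsive guidance molecules, which went from 0.84 to 12.7 TPM. The BMP type I receptor gene bmpr1ba went from 1.55 to 34.5 TPM (log2 change 3.85, limma adjusted p = 7.5e-11). An acvr1b ID (ENSDARG00000018968), for an activin type I receptor, went from 95.9 to 32.4 TPM.

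Of 13 tested extracellular antagonists and Chordin-processing genes 6 rose and 5 fell. The 3 with the smallest p-values outside the set all had a mean under 1 TPM at 8 hpf, so the filter favoured their rise. An fst ID (ENSDARG00000052846), for follistatin, which binds activins and some BMPs, went from 0.53 to 37.3 TPM. The gene dand5, for a secreted Nodal and BMP antagonist, went from 0.025 to 10.5 TPM, and 1 fstl1 ID (ENSDARG00000015559) from 0.89 to 67.2 TPM. Of 25 tested transducers and inhibitors 10 rose and 12 fell. The receptor-activated Smad gene smad5 went from 150 to 74.7 TPM (log2 change -0.99, limma adjusted p = 1.7e-07), and skilb, a member of the Ski family of Smad repressors, went from 30.7 to 0.57 TPM. An ID named znf423 (ENSDARG00000059707), for a zinc finger protein that binds Smads, went the other way, from 1.38 to 11.1 TPM (log2 change 2.35, limma adjusted p = 1.5e-10). Of 22 tested organizer genes 4 rose and 15 fell, with a median change of -1.64 against 0.20 for all genes, and foxa3 went from 96.5 to 19.4 TPM; its average pool difference of -0.12 ± 0.03 was called with the block alone (limma adjusted p = 0.033, against 0.22 without it). For organizer genes the 3 smallest p-values also included admp and the fst ID already named.

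Of 37 tested BMP-induced and ventral genes 15 rose and 16 fell. The homeobox gene eve1, a ventral and tailbud marker, went from 181 to 19.3 TPM, dlx4b, a homeobox gene, went from 0.18 to 12.8 TPM, and 1 crabp2 ID (ENSDARG00000073978), for a retinoic acid-binding protein, went from 0.14 to 54.7 TPM. In this list 2 of 37 genes were called in the average pool difference, a share near the 5.29% of all genes, so it is no result about the list. The forkhead gene foxi1, which marks ventral ectoderm, was higher in MPNP by 0.60 ± 0.09 (log2, SE; limma adjusted p = 0.0012), and was not called in libraries numbered 1 alone (0.53, limma adjusted p = 0.21). At 16 hpf it measured 38.4 and 44.2 TPM in MPNP and 14.6 and 20.5 TPM in PNP, without overlap, a difference of 1.21 ± 0.20 (limma adjusted p = 0.0061). The gene dlx4b was lower in MPNP by 0.37 on the log2 scale (limma adjusted p = 0.019), and with the offset removed its difference was -0.27 (limma adjusted p = 0.074). It was not called in libraries numbered 1 alone or 2 alone (limma adjusted p = 0.20 and 0.11). In the average pool difference without the block, 1 of 12 ligands was called, higher in MPNP. That fit called 0 of 16 receptors, 0 of 13 antagonists, 0 of 25 transducers and 0 of 22 organizer genes. With the block, the average pool difference called 1 gene higher and 1 lower among the ligands, 1 lower among the receptors, 3 lower among the antagonists, 2 higher and 1 lower among the transducers, 4 higher and 5 lower among the induced genes and 2 higher and 5 lower among the organizer genes, against 17.4% of all genes in either direction.

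The genes whose course was most like that of a member were found by Pearson's r of log2(TPM + 1) over the 20 libraries, among genes with a symbol and a mean of at least 5 TPM. These libraries share stage, so high values are common, and no p is given. For chrd they were gsc (r = 0.988), an organizer homeobox gene, and pnhd (0.984). For abundant bmp2 they were rbp7a (0.983) and si:dkey-246m18.3 (0.980), and for less abundant bmp2 they were hoxa9b and gbx2 (both 0.991). For bmp4 they were wapl and tgm2l (both 0.974), and for bmp7a zp3e (0.987) and crp2 (0.981). For szl the best were six7 (0.922) and wnt5b (0.905), and for level smad6 si:dkey-100n23.4 (0.869) and hadha (0.857), lower than for the other IDs. Abundant bambi was closest to grnb (0.989) and bcl2l10 (0.988), less abundant bambi to neu1 (0.991) and nr2f5 (0.990), and rising smad6 to nrp1 (0.992) and hhip (0.990). For smad7 they were tcf7l1b (0.978) and cdc14a (0.970), and for id3 tmeff1b (0.962) and chordc1 (0.961).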

How the data were processed

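Poly(A)-selected RNA of whole embryos was sequenced as paired reads of 150 bases from about 500 ng of RNA, per the labels. The deposited values were TPM for 32057 gene IDs, rounded by the authors to 2 decimals, with near-equal library totals. Per the submitters' processing notes, the build was GRCz11 and the tools were RSEM 1.3.3, STAR 2.7.3a, DESeq2 1.42.1, HTSeq 0.12.3 and R 4.3.3. Their roles are not given in the sources used. Since TPM drops the read depth, read counts are unknown and no counting interval is given. Another 4 unnamed columns held no values.

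Symbols came from a gene name table that matched 28988 IDs. With limma 3.58.1 in R 4.3.3, 1 mean per pool type and stage was fitted to log2(TPM + 1) of all 20 libraries, with an intensity trend, over 14774 genes with a mean of at least 1 TPM; p-values are two-sided. The fit was tested on simulated data with independent noise in each library. That simulation lacked the shared deviation of same-numbered libraries and so did not test the calls under it. Same-numbered libraries of both pools correlated in their deviations from group means at every stage (0.485, 0.586, 0.615, 0.539 and 0.601 from 8 to 16 hpf), which is where the pairing comes from. The developmental offset was estimated from 14659 genes outside the BMP lists. Genes outside the set were named by rule: the 3 smallest p-values per role list in the 8 to 16 hpf change, up to 4 genes per list called in the average pool difference, and the 2 genes most like each member. The members and lists were chosen with earlier results of these data known. No sequences were used here. Alternatives changed the pseudocount, filter, scaling, trend, block, libraries and offset.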

Additional observations from a re-analysis of the deposited data

How the results depend on the processing

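Counts below are of the 12 member IDs called by limma; the report names them and gives the share of all genes for the block, rescaling and offset fits. For the average pool difference (1 called), 4 were called with the replicate block, 3 with median-of-ratios rescaling and 3 with the offset removed together with the block (chosen after seeing the data), of which abundant bmp2 and abundant bambi were called in each of these 3 fits, chrd not after rescaling and rising smad6 not with both together, 0 with libraries numbered 1 or 2 alone, and 1 to 2 without any 1 library (2 without PNP 10 hpf number 1). For single stages, the block gave 1 at 10 hpf and 1 at 14 hpf in place of 0; offset removal with the block gave 1 at 8 hpf and 1 at 10 hpf in place of 0 and 2 at 16 hpf in place of 1; the 4 libraries of 16 hpf alone gave 0; and leaving out 1 library gave 0 to 1 at 16 hpf. For the difference at 16 hpf minus that at 8 hpf (0 called), the block, offset removal, both together, no filter and a pseudocount of 5 each gave 1, abundant bmp2. For stage changes, 10 to 12 hpf (9 called) gave 3 in MPNP alone and 8 to 10 without any 1 library; 12 to 14 hpf (5 called) gave 3 in libraries numbered 2 alone, 3 in PNP alone, 8 with the block and 4 to 5 without any 1 library; 14 to 16 hpf (7 called) gave 3 in MPNP alone, 4 in PNP alone and 4 to 7 without any 1 library. The change from 8 to 16 hpf kept a count of 9 without any 1 library. The cause of these changes was not tested. Beyond the calls given in the report, the block changed no other call among the members.

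Directions turned only in values that were not called without the block. Among these was the chrd change from 8 to 10 hpf, which was called with the block. Its mean rose in PNP (144 to 180 TPM) but not in MPNP (138 to 135 TPM). The average pool difference was 0.012 for less abundant bambi with the offset removed, with or without the block, 0.040 for id3 and -0.044 for szl in libraries numbered 2 alone, and -0.047 to 0.127 for smad7 without any 1 library. The change from 8 to 16 hpf was -0.078 for level smad6 in PNP alone, and for szl 0.10 in libraries numbered 2 alone, 0.13 in PNP alone and -0.121 to 0.068 without any 1 library. The difference at 16 hpf minus that at 8 hpf ranged without any 1 library from -0.021 to 0.232 for abundant bambi, from -0.22 to 0.36 for id3 and from -0.18 to 0.69 for smad7. Rescaling moved the median of all genes by at most 0.08 (log2). The search of promoters for motifs was not run. Groups of 2 libraries, unknown read depth and mixed genotypes in MPNP pools limit the precision of every pool difference.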
